A study of Mus musculus with 12 samples.

Results

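The Serpina3 genes of mouse chromosome 12 encode serpins of the alpha-1-antichymotrypsin type. The 7 members described here are Serpina3n, Serpina3m, Serpina3g, Serpina3f, Serpina3c, Serpina3h and Serpina3i, of 25511 genes in the table of fragments per gene and library. They were found by their symbols and fill 6 entries of that table, because Serpina3f and Serpina3g share an entry. They were chosen with the response to conditioned medium in these libraries known, so the differences between the media are given below as a description. Calls on these differences are counted only at the end, to show how they depend on the processing, and nothing is read from them. Comparisons between the genotypes were tested.

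RNA was sequenced from cultures of osteoblasts of the neonatal mouse skull, all of strain C57Bl/6J, labelled either wildtype (WT) or F2rl1 -/- (KO). F2rl1 encodes protease-activated receptor 2 (PAR2), which proteases switch on by cutting its outer end. Cells of both genotypes first grew for 48 h and then spent 4 days in BRFF-HPC1 medium with 20% serum, used fresh or after 48 h on cultures of MDA-PCa-2b, a line from a human prostate tumour. These media are called unconditioned and conditioned, and the study asked what PAR2 contributes to the response. The labels name 3 samples in each of 4 groups. Libraries 0 and 1 of the unconditioned WT group differed by less than the sampling noise and were counted as 1 sample, so 11 distinct libraries remained, with totals of 15023994 to 16956754 fragments. Whether samples within a group came from separate mice is not labelled, and the p-values cover only the spread seen among these samples, which may be technical. The labels describe no pooling of mice and no part of the gene that was removed.

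Labels and libraries did not match at every point. One sample titled WT, unconditioned, carries the genotype label of the KO and was kept by its title. F2rl1 itself had 33, 33 and 46 fragments in the unconditioned libraries labelled KO, against 25 and 20 in those labelled WT. In conditioned medium it had 31, 13 and 12 against 14, 23 and 14. The table sums the whole gene and cannot show whether the removed part was read, so this gene did not check the labels, and WT and KO below stand for the labels. Library 0 of each KO group stood apart over all genes. Unconditioned KO library 0 differed less from WT library 2 (chi-square per degree of freedom of 8.21) than from the other KO libraries (58.8 and 77.9). Conditioned KO library 0 likewise lay nearer to WT library 2 (11.8) than to the other KO libraries (85.6 and 135). Fitted values of the members that these libraries moved by over 1.5 times are given with and without them where the remaining fragments allow a fold. The osteoblast label was checked against 8 markers, whose summed level was 9231 to 27025 CPM (counts scaled to library size), most of it from Col1a1 and Spp1. Markers of mature bone-forming cells were near the floor, with 0 to 13 fragments for Bglap, 3 to 16 for Ibsp and 0 to 5 for Dmp1.

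A serpin traps its target: the protease cuts an exposed loop of the inhibitor, and the cut loop then tucks into the inhibitor's own sheet, dragging the bound enzyme along and deforming it. Humans have a single SERPINA3 gene, alpha-1-antichymotrypsin, while the mouse carries a run of related copies whose loops differ and which therefore meet different proteases. Serpina3n, the copy most studied outside the liver, inhibits granzyme B, leukocyte elastase and cathepsin G, and Serpina3g inhibits cysteine cathepsins inside cells. Members of the family are acute phase genes, raised by interleukin-6 through STAT3, and several respond to glucocorticoids.

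The entries lie on chromosome 12 (GRCm38). Serpina3c, on the minus strand, covers 104146907 to 104153872. On the plus strand follow the shared entry of Serpina3f and Serpina3g (104214544 to 104241934), Serpina3h (104247896 to 104254405), Serpina3i (104263122 to 104269365), Serpina3m (104387164 to 104394257) and Serpina3n (104406708 to 104414329). In the GENCODE annotation the transcript used for Serpina3n, Serpina3m, Serpina3g and Serpina3c has 5 exons, that for Serpina3f and Serpina3i 6, and that for Serpina3h, which carries no coding sequence, 4. The promoters are shown because the copies share much of their sequence just before the start while their levels differ widely. RefSeq's table for build GRCm38.p6 held a start for 5 of the 7 members (Serpina3c, Serpina3f, Serpina3g, Serpina3i and Serpina3n). Below are the 250 bases before the start of 4 of them, each read along the gene's own strand, and capitals mark matches to the motifs named next.
Serpina3n, chr12:104406458-104406707, plus strand: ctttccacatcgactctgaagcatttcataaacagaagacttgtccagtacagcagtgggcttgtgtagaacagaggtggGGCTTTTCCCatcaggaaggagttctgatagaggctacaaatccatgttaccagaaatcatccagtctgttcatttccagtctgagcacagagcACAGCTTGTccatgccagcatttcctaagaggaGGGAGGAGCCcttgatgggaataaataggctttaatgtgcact
Serpina3c, chr12:104153873-104154122, minus strand: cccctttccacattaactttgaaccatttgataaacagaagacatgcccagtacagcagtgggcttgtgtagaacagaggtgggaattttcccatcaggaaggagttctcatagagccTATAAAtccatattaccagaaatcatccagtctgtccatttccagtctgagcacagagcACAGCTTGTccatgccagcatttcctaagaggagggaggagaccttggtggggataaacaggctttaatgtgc
Serpina3i, chr12:104262872-104263121, plus strand: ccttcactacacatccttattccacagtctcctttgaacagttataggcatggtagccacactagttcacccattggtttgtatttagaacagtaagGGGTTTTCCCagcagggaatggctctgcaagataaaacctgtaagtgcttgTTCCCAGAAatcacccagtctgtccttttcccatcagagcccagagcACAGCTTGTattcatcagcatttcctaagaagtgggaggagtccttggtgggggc
Serpina3g, chr12:104235897-104236146, plus strand: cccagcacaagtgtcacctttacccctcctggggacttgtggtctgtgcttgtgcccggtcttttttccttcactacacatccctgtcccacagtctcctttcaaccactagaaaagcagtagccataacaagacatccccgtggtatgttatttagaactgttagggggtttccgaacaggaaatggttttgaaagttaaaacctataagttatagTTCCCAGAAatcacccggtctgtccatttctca

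Searched on both strands were the STAT motif TTCNNNGAA, the core ACANNNTGT of the glucocorticoid response element, the NF-kB motif (GGGA and CC separated by 4 bases), the C/EBP motif TTGCNNAA, the AP-1 motif TGANTCA and TATAAA. No matches overlapped in these windows. The same 9 bases, ACAGCTTGT, matched the glucocorticoid core in Serpina3n, Serpina3c, Serpina3i and Serpina3f, at positions -76 to -68 from the start in Serpina3n and -73 to -65 in Serpina3c. Of 32851 mouse promoter windows of the same length, 5.84% held a match to that core. The STAT motif matched in Serpina3f (TTCCTAGAA), Serpina3g and Serpina3i (TTCCCAGAA in both), against 7.02% of all windows. The NF-kB motif matched in Serpina3n, Serpina3f and Serpina3i, against 17.6%, and the C/EBP motif in Serpina3f, against 9.56%. TATAAA matched in Serpina3c at positions -132 to -127 and, on the other strand, in Serpina3f, against 12.4% of windows, and TGANTCA, found in 6.75% of windows, was not in these letters. Serpina3f, whose letters are not printed, had a window at 104214294 to 104214543 and another at 104214383 to 104214632. Its NF-kB and TATAAA matches lay in the former only and so depend on the start used. The windows of Serpina3n and Serpina3c were identical at 92.7% of aligned bases, the highest value of the 10 pairs. That of Serpina3g was the least like Serpina3n, at 59.5% with 82% of bases aligned. The shared TTCCCAGAA sat at -33 to -25 in Serpina3g and at -102 to -94 in Serpina3i, so the Serpina3g window was offset. Its low identity and its lack of ACAGCTTGT depend on the start used, since the matching bases may lie beyond the window. A match is a description of the letters only. Since the members are related copies that share letters, their matches are not independent, and the shares over all windows are no yardstick for them.

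Serpina3n was by far the most abundant member. Its FPKM, a level per length and depth, averaged 182 ± 3.55 (SD, n = 2) in unconditioned WT libraries and 267 ± 131 (n = 3) in unconditioned KO libraries. Over all 11 libraries the order by mean FPKM was Serpina3n at 114, Serpina3m at 5.68, the shared Serpina3f and Serpina3g entry at 3.56, Serpina3i at 0.574, Serpina3h at 0.180 and Serpina3c at 0.103. Serpina3n was above each other entry in all libraries. The order by CPM was the same. Neighbours below Serpina3n were not always apart: Serpina3m ran from 0 to 22.6 FPKM, across the whole range of the shared entry (0.871 to 7.39), and the ranges of Serpina3i, Serpina3h and Serpina3c all began at 0.

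**Figure D1:**
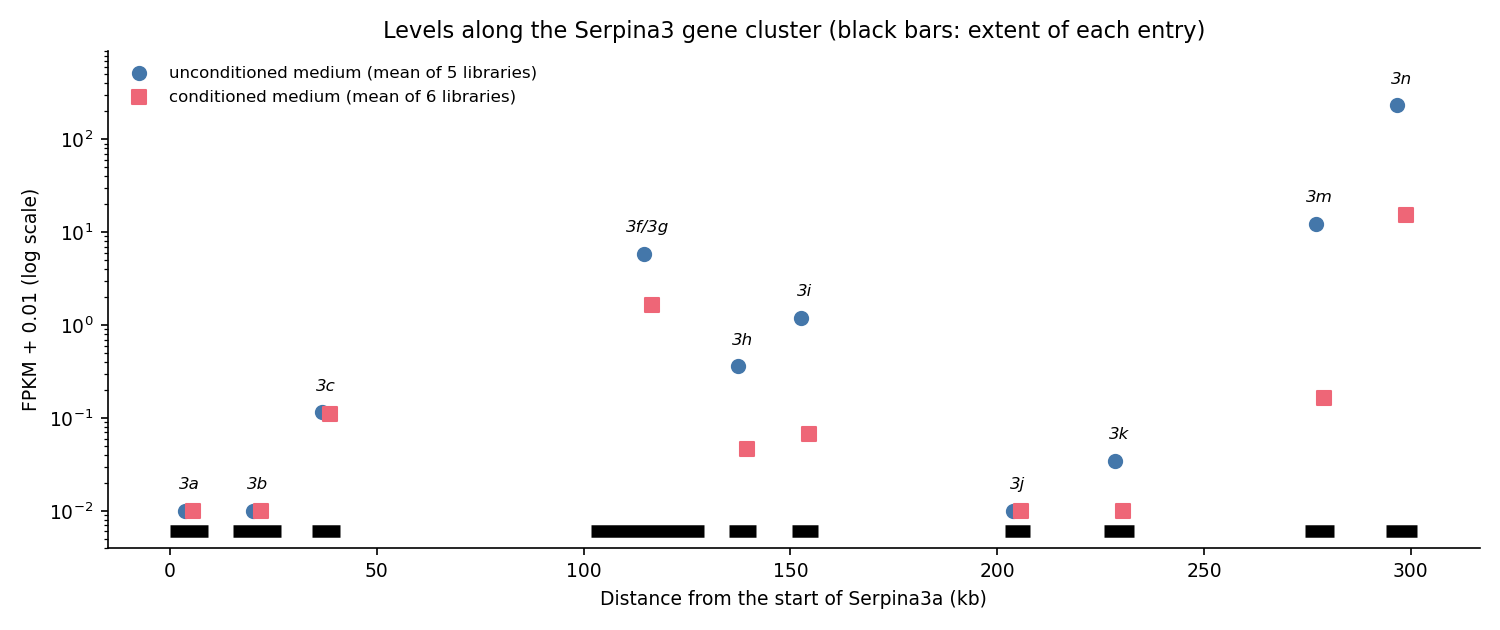
Mean FPKM plus 0.01 (log axis) of the 10 Serpina3 entries in unconditioned medium (circles, 5 libraries) and conditioned medium (squares, 6 libraries), by distance in kb from the start of Serpina3a. Black bars give the extent of each entry. Serpina3n and Serpina3m, at the right end, hold the highest unconditioned levels (233 and 12.3 FPKM), while Serpina3a, Serpina3b and Serpina3j lie at 0 in both media.

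The plot of levels along the cluster places the 2 copies most abundant in unconditioned medium next to each other. In conditioned medium the shared Serpina3f and Serpina3g entry (mean 1.64 FPKM) lay above Serpina3m (0.153). Serpina3m starts 274 kb and Serpina3n 294 kb from the start of Serpina3a. Between the expressed copies lie Serpina3j, with 0 fragments in each library, and Serpina3k, the copy abundant in liver, with 0 to 3. Serpina3a and Serpina3b, at the other end, also had 0 fragments in each library. A count of 0 allows up to 3 fragments, which is 0.177 to 0.200 CPM here and covers counting error only.

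Serpina3n was lower in conditioned medium in both genotypes. In WT libraries its CPM was 404 and 387 unconditioned, and 31.8, 25.7 and 54.3 conditioned. In KO libraries 0, 1 and 2 it was 279, 781 and 675 unconditioned, and 59.3, 23.7 and 11.2 conditioned. The lowest unconditioned library (279) lay above the highest conditioned one (59.3), so the media did not overlap. The fitted log2 change was -3.41 (SE 0.64) in WT, a mean 10.6 times lower, and -4.21 (SE 0.63) in KO, a mean 18.4 times lower. Without both KO libraries 0, a choice made after seeing the data, the KO change was -5.39. In bulk RNA, fewer cells that express a gene and less of its RNA per cell cannot be told apart.

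**Figure D2:**
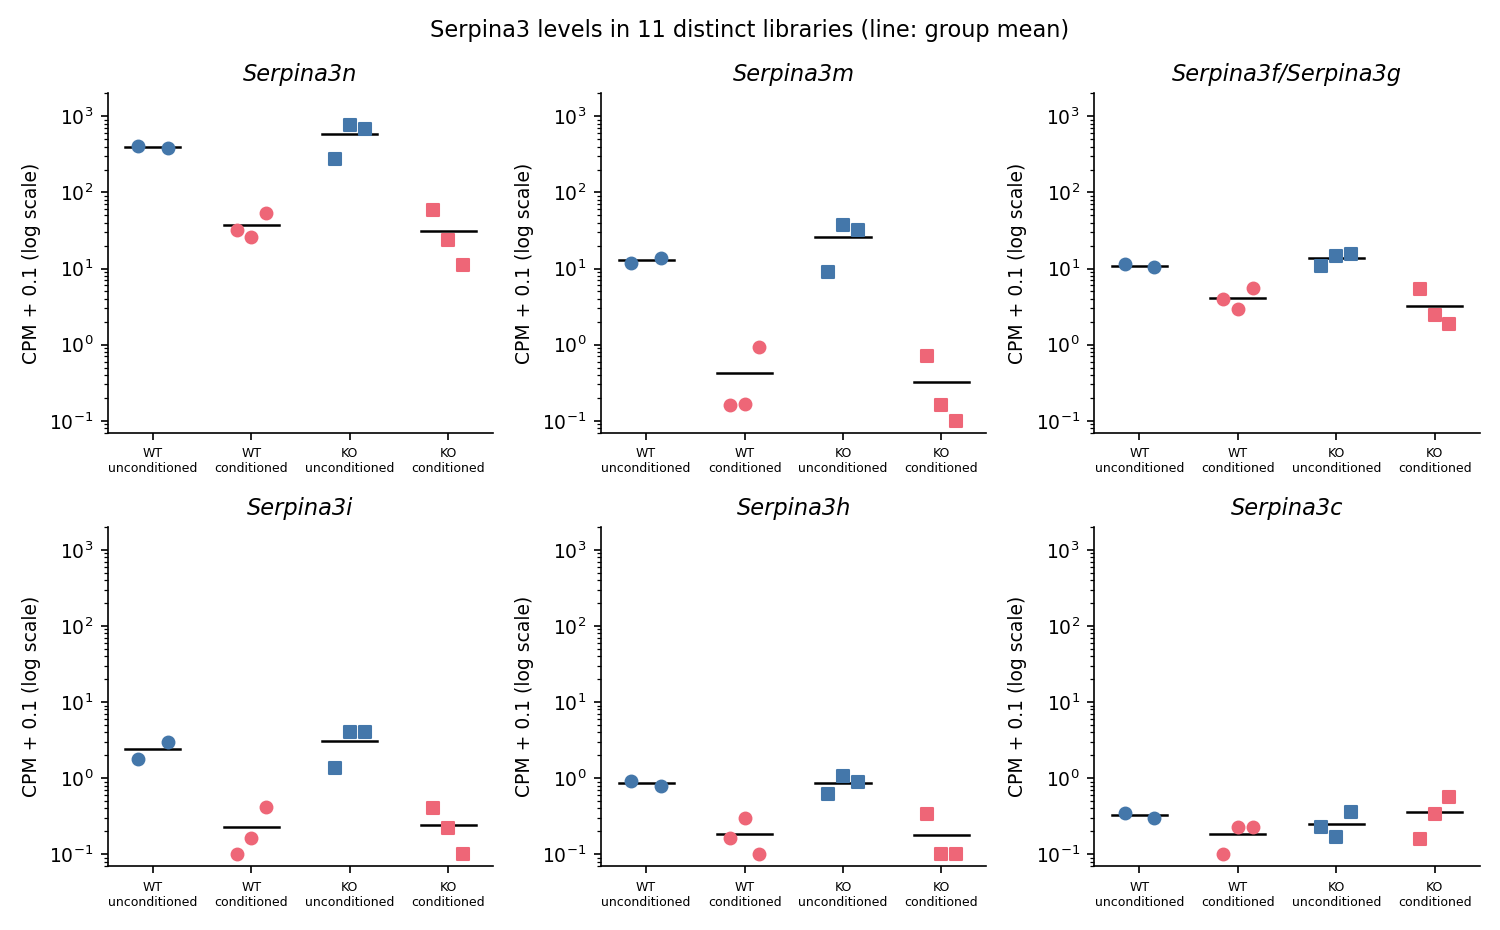
CPM plus 0.1 (log axis) of the 6 member entries in each of 11 distinct libraries, by genotype (circles WT, squares KO) and medium (blue unconditioned, red conditioned). Lines are group means. For 5 entries all blue points lie above all red points of the same genotype, as for Serpina3n (279 and above against 59.3 and below), while the points of Serpina3c overlap between media in KO.

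Serpina3m, the neighbour of Serpina3n, had the most negative log2 changes of the 5 fitted entries. It had 188 and 201 fragments in unconditioned WT libraries and 1, 1 and 13 in conditioned ones. In KO libraries it had 137, 550 and 489 unconditioned, and 10, 1 and 0 conditioned. It thus had 3 fragments or fewer in 4 of the 6 conditioned libraries, and the media did not overlap. The log2 change was -5.29 (SE 0.97) in WT and -6.90 (SE 0.99) in KO. Without both KO libraries 0 the conditioned KO group held 1 and 0 fragments, so no fold is given for it.

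The shared entry of Serpina3f and Serpina3g consisted almost wholly of Serpina3g. In the authors' table of transcripts, Serpina3g, the inhibitor of cysteine cathepsins, held 90.1% to 100% of its fragments. Serpina3f had 7 and 15 fragments in unconditioned WT libraries, 1 to 3 in conditioned WT, 4 to 8 in unconditioned KO and 0 to 3 in conditioned KO libraries. The entry as a whole, called Serpina3g from here on, had a CPM of 11.4 and 10.3 in unconditioned WT libraries, against 3.87, 2.83 and 5.38 conditioned. In KO libraries it had 10.8, 14.5 and 15.3, against 5.31, 2.37 and 1.79. The media did not overlap, but the distance was smaller than for Serpina3n. The log2 change was -1.43 (SE 0.41) in WT and -2.10 (SE 0.38) in KO, and -2.84 in KO without both libraries 0.

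The remaining copies were scarce. Serpina3i had 27 and 42 fragments in unconditioned WT libraries and 0, 1 and 5 in conditioned ones, and in KO libraries 19, 57 and 60 against 5, 2 and 0. Its log2 change was -4.07 (SE 0.97) in WT and -4.41 (SE 0.89) in KO. The conditioned means were 2 and 2.33 fragments, under the floor of 3, so the size of these changes is uncertain. Leaving out both KO libraries 0 left 2 and 0 fragments in the conditioned KO group, for which no fold is given. Serpina3h, which GENCODE lists without a coding sequence, had 13 and 10 fragments in unconditioned WT libraries and 1, 3 and 0 in conditioned ones. In KO libraries it had 8, 14 and 12 against 4, 0 and 0, and its groups did not overlap in either genotype. Serpina3c, known as kallikrein-binding protein, had 0 to 9 fragments and did not pass the filter on low counts. Its highest value, 9 fragments, was in a conditioned KO library, and its media overlapped in KO. In WT it had 4 and 3 fragments unconditioned and 0, 2 and 2 conditioned, all near the floor.

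The groups did not overlap, conditioned below unconditioned, for 5 of the 5 entries that passed the filter in each genotype, beside 16.8% of all 15197 genes tested in WT and 7.53% in KO. Nothing is read from these shares, since the members were chosen from this contrast. With the KO library number as a block, which leaves KO libraries only, the log2 change of Serpina3n was -4.45, and 0 genes were called at an adjusted p under 0.05 in edgeR's quasi-likelihood test.

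**Figure D3:**
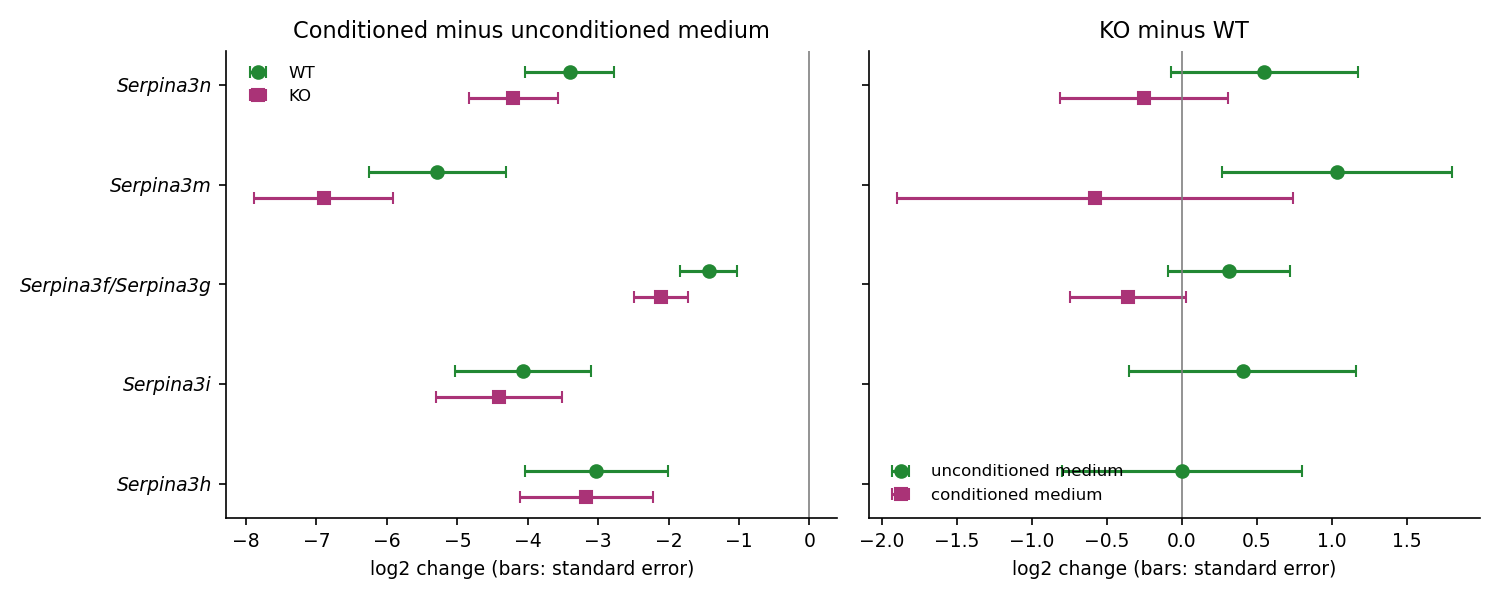
Left: log2 change, conditioned minus unconditioned medium, in WT (circles) and KO (squares). Right: log2 change, KO minus WT, in unconditioned (circles) and conditioned medium (squares), with standard errors as bars. All changes on the left lie below 0 (from -1.43 to -6.90), whereas on the right the points lie on both sides of 0 (from -0.58 to 1.03) and most bars of 1 SE reach it. On the right, Serpina3i and Serpina3h in conditioned medium are left out, since their group means were under 3 fragments per library. On the left their changes rest on the same low conditioned means, so their size is uncertain.

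The composition of the cluster's RNA also differed between the media. Serpina3m fragments amounted to 2.95% to 4.82% of those of Serpina3n in the 5 unconditioned libraries and to 0% to 1.53% in the 6 conditioned ones. Serpina3g went the other way, from 1.86% to 3.87% unconditioned to 8.95% to 16.0% conditioned. Neither pair of ranges overlapped, so Serpina3m had the steeper and Serpina3g the shallower difference relative to Serpina3n. The conditioned Serpina3m shares rest on 0 to 13 fragments, so their size is uncertain. As the members were chosen from the contrast of the media, these ranges are a description only. Of 15197 genes, Serpina3n had the number 10 most negative log2 change in WT and number 12 in KO. Most genes would therefore rise relative to it, as Serpina3g did, and no share over all genes was computed. For Serpina3i the share was 0.423% to 0.739% unconditioned and 0% to 0.590% conditioned, and for Serpina3h 0.116% to 0.204% and 0% to 0.767%. The conditioned values rest on 0 to 5 and 0 to 4 fragments, too few to show a difference or a stable share. In these fragment shares, length is not divided out, so they compare media within a gene and not genes with each other.

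**Figure D4:**
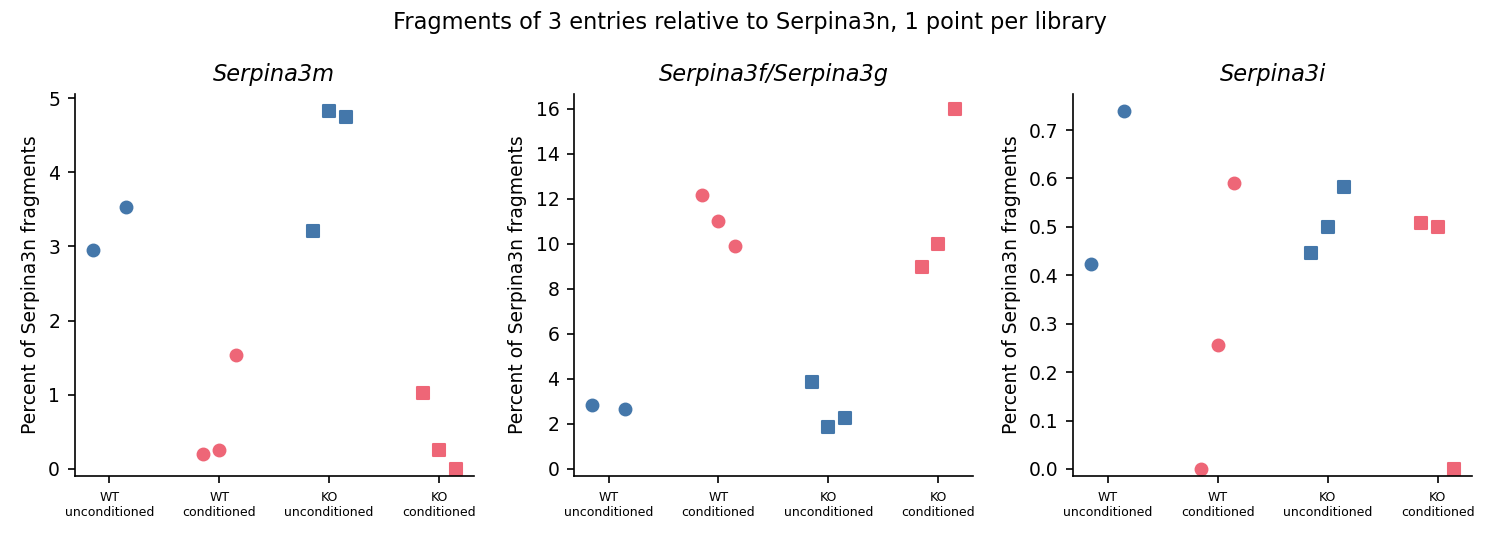
Fragments of Serpina3m, the Serpina3f and Serpina3g entry, and Serpina3i as a percent of Serpina3n fragments in each library, by genotype (circles WT, squares KO) and medium (blue unconditioned, red conditioned). The Serpina3m points, which rest on 0 to 13 fragments when conditioned, are higher in unconditioned medium (2.95% to 4.82%). The Serpina3g points are higher in conditioned medium (8.95% to 16.0%), and the Serpina3i points, which rest on 0 to 5 fragments when conditioned, overlap.

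Reads shared between copies bear on these ratios. The coding sequences of Serpina3n and Serpina3m were identical at 85.2% of aligned bases, and those of Serpina3f and Serpina3i, the closest pair, at 92.1%. Of the 50-base stretches of each reference transcript, 5.71% in Serpina3n, 3.11% in Serpina3m, 14.4% in Serpina3g, 11.1% in Serpina3i and 22.7% in Serpina3h also occurred in another member. Serpina3m shared 18 of its 1610 stretches with Serpina3n, and Serpina3i shared 0 of 2151 with it. Serpina3g shared more, 51 of its 1754, which made up 2.53% of the stretches of Serpina3n. Fragments of Serpina3g were 1.86% to 3.87% of those of Serpina3n in unconditioned libraries, a share of similar size. How the authors' counting split such reads is not given in the sources used here. Values for Serpina3g and for the scarce copies are uncertain to that extent.

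KO minus WT was tested in each medium. In unconditioned medium the mean CPM of Serpina3n was 395 ± 12.4 (SD, n = 2) in WT and 578 ± 265 (n = 3) in KO, and the groups overlapped because KO library 0, at 279, lay below both WT libraries. The log2 difference was 0.55 (SE 0.62, approximate 95% interval -0.67 to 1.77), with an adjusted p of 0.996 in edgeR. For Serpina3m the means were 12.8 ± 1.24 and 26.2 ± 15.2 CPM, with a log2 difference of 1.03 (SE 0.77, adjusted p = 0.996), and again library 0 lay below and the other KO libraries above the WT libraries. Serpina3g differed by 0.31 (SE 0.41), Serpina3i by 0.41 (SE 0.76) and Serpina3h by 0.00 (SE 0.80), all within the spread between libraries. Of the 5 entries 0 were called, at an adjusted p under 0.05 in edgeR's quasi-likelihood test (0 at an unadjusted p under 0.05, 0 by DESeq2 and 0 by limma), where 0.00658% of all genes were called. The median over the 5 entries was 0.41 and over all genes 0.01.

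Without both KO libraries 0, the log2 difference in unconditioned medium was 0.88 (SE 0.41, adjusted p = 0.231 in edgeR) for Serpina3n and 1.45 (SE 0.42, adjusted p = 0.0884) for Serpina3m. Neither passed the threshold. In the authors' deposited table of transcript tests, Serpina3m was called higher in the KO control group, with a log2 fold change of 1.09 and a q-value of 0.00160, among 272 of 20461 tests called. Serpina3n had 0.56 with a q-value of 0.0939 in the authors' deposited table, and Serpina3g 0.34 with 0.549. The sizes in the authors' deposited table are near those fitted here, while edgeR did not call Serpina3m. With the near-identical WT pair kept as 2 libraries, 12 in all, edgeR gave Serpina3m an adjusted p of 0.788.

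In conditioned medium the differences of Serpina3n, Serpina3m and Serpina3g were negative but within the spread between libraries. Serpina3n had a mean CPM of 37.3 ± 15.05 (SD, n = 3) in WT and 31.4 ± 24.9 (n = 3) in KO, a log2 difference of -0.25 (SE 0.56, approximate 95% interval -1.35 to 0.85, adjusted p = 0.817 in edgeR). Serpina3m, with 3 fragments or fewer in 4 of these libraries, differed by -0.58 (SE 1.32, adjusted p = 0.820). Serpina3g had means of 4.02 ± 1.28 and 3.15 ± 1.89 CPM and differed by -0.36 (SE 0.38, adjusted p = 0.616). Serpina3i and Serpina3h had under 3 fragments per library on average in both genotypes, so no fold is given. Of the 5 entries 0 were called (0 at an unadjusted p under 0.05, 0 by DESeq2 and 0 by limma), and of all genes 0% (2061 at an unadjusted p under 0.05, 2 called by DESeq2).

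Single libraries moved these values and turned the sign of 2 of them. For Serpina3n the log2 difference was 0.16 without conditioned KO library 2, 0.12 without conditioned WT library 2 and -1.09 without conditioned KO library 0. For Serpina3m it was 0.042 without conditioned KO library 2 and 1.61 without conditioned WT library 2. Conditioned KO library 0 held the highest CPM of its group for Serpina3n (59.3), Serpina3m (0.603) and Serpina3g (5.31), above all WT libraries for Serpina3n and within the WT range for the other two, while KO libraries 1 and 2 lay below all 3 WT libraries for Serpina3n and Serpina3g. Without library 0 of that group Serpina3g was lower in KO, by -0.95 on the log2 scale (SE 0.30, adjusted p = 0.0371 in edgeR), among 4702 genes called. Without both KO libraries 0 the difference was -0.95 for Serpina3g (adjusted p = 0.0236) and -1.09 for Serpina3n (adjusted p = 0.0693), among 6056 genes called. Why library 0 stood apart was not tested.

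The interaction asked whether the response to the medium differed between the genotypes. The KO response minus the WT response was -0.80 (SE 0.84, adjusted p = 0.837 in edgeR) for Serpina3n, -1.61 (SE 1.54, adjusted p = 0.830) for Serpina3m and -0.67 (SE 0.56, adjusted p = 0.822) for Serpina3g. None of the 5 entries was called (0 at an unadjusted p under 0.05, 0 by DESeq2 and 0 by limma), and 0% of all genes (489 at an unadjusted p under 0.05). The approximate 95% interval for Serpina3n, -2.44 to 0.84, holds differences of several fold in the KO direction. Without both KO libraries 0 the interaction was -1.40 (adjusted p = 0.0342) for Serpina3g and -1.97 (adjusted p = 0.0560) for Serpina3n, with 2705 genes called.

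The 5 genes whose log2 CPM was most like that of Serpina3n over the 11 libraries were Il1r1 (Pearson r of 0.994), Serpina3m (0.992), Rasl11a (0.987), Acsl4 (0.987) and Serpina3g (0.985). The libraries fall into separate clusters by medium, which these values share. After centring each group they were 0.981, 0.927, 0.874, 0.933 and 0.937, and for Serpina3i and Serpina3h 0.878 and 0.488. Il1r1 encodes the receptor of interleukin-1, Acsl4 an enzyme that activates long fatty acids, and Rasl11a a small GTPase-like protein. Mean CPM of Il1r1 was 330 ± 27.0 unconditioned and 140 ± 14.9 conditioned in WT, and 355 ± 73.8 and 111 ± 36.8 in KO. All these values share library and depth and are given as a description.

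**Figure D5:**
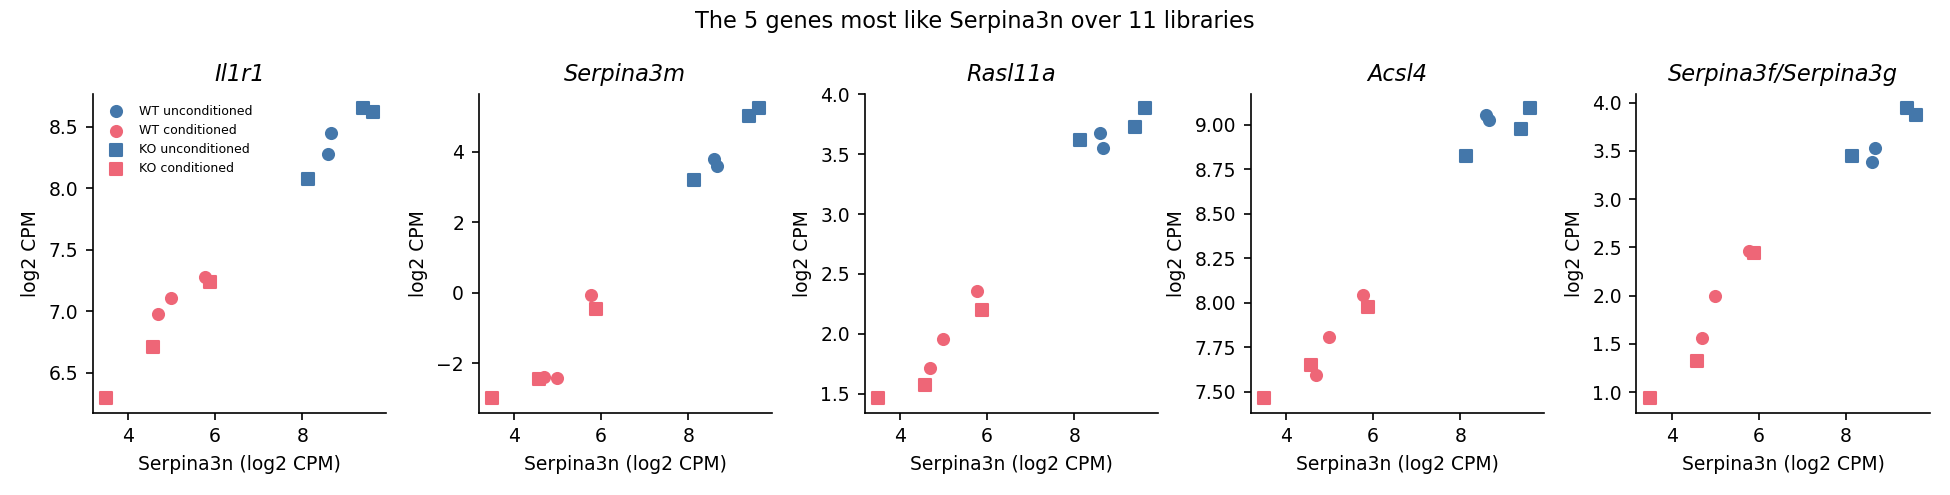
Log2 CPM of the 5 genes most like Serpina3n (y axes) against log2 CPM of Serpina3n (x axes) in 11 libraries, by genotype (circles WT, squares KO) and medium (blue unconditioned, red conditioned). Conditioned libraries lie at the lower left and unconditioned libraries at the upper right in each panel, with r from 0.985 to 0.994.

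The medium differences of other genes were tested in the same way. The gene lists, like the members, were chosen with earlier results of these data known. Counts within the lists are therefore a description and support nothing. The KO calls come from the fit without a block, and with the KO library number as a block 0 genes were called. Among all genes tested, 1.6% were called in WT (0.507% lower and 1.09% higher) and 16.7% in KO (7.94% lower and 8.8% higher). Of 27 listed neighbours on chromosome 12, among them the Serpina1 copies and other serpins, 11 were tested. In WT 0 were called higher and 0 lower, and in KO 1 higher and 0 lower, counts too small to set the neighbours apart from the shares over all genes. The called gene was Ddx24, an RNA helicase, with a log2 change of 0.20 in WT and 0.87 in KO. Serpina1a to Serpina1e, which encode alpha-1-antitrypsin, had 0 fragments in each library. The median log2 change of the tested neighbours was 0.11 in WT and 0.18 in KO, beside 0.01 over all genes.

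Serpins elsewhere in the genome were mixed. Of 14 tested, 0 were called in WT and in KO 2 were called higher and 1 lower. Serpinb9b, an intracellular serpin of the granzyme inhibitor group, had a log2 change of 2.29 (SE 0.53) in WT and 2.07 (SE 0.45) in KO. Serpinb8 had 1.61 and 1.30, and Serpinh1, the collagen chaperone HSP47, had -0.40 and -0.90.

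Among 12 listed proteases that Serpina3n or Serpina3g are known to bind, or that are close to such targets, 7 were tested. In WT 1 was called higher and 0 lower, and in KO 2 higher and 0 lower. Ctsk, cathepsin K, the collagen-cutting protease of bone resorption, had mean CPM of 101 and 278 in WT and 134 and 337 in KO, unconditioned and conditioned. Gzmb, granzyme B, was scarce, at 0.328 and 0.898 CPM in WT and 0.333 and 3.94 in KO. Ctsb and Ctsl, the abundant lysosomal cathepsins, had log2 changes of 0.68 and 0.55 in WT and were not called. The 4 markers of T and natural killer cells, the usual source of granzyme B, summed to at most 0.0658 CPM in any library.

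Of 25 tested genes of the interleukin-6, STAT3 and acute phase list, the log2 change was negative for 24 in WT and 22 in KO, and 2 were called lower and 0 higher in WT, and 14 lower and 0 higher in KO, with medians of -0.90 and -1.30. A2m, the broad protease trap alpha-2-macroglobulin, had log2 changes of -2.60 and -3.19. Il1rn, the interleukin-1 receptor antagonist, had -2.52 and -3.64. Steap4, a metal reductase, had -1.77 and -1.45 and was called in both genotypes. Ptx3, a secreted pentraxin, fell from 1427 to 489 CPM in WT and from 2104 to 854 CPM in KO. Stat3 itself had -0.13 and -0.29 and was not called. Il6 had -0.36 (SE 0.93) in WT and 1.56 (SE 0.83) in KO. C3 and Il6ra also had positive changes in KO, and none of these genes was called.

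Of 18 tested genes of the glucocorticoid list, the log2 change was negative for 15 in WT and 14 in KO. In WT 4 were called lower and 0 higher, and in KO 9 lower and 0 higher, with medians of -0.95 and -1.05. Cdkn1c had the largest positive changes, 1.07 (SE 0.58) in WT and 1.30 (SE 0.51) in KO, and was not called. The list also holds Nr3c1, the glucocorticoid receptor itself, at 0.38 and 0.10, and Hsd11b1, at 0.27 and 0.02. Neither was called. Fkbp5, a chaperone of the glucocorticoid receptor complex, fell from 97.3 to 14.7 CPM in WT and from 112 to 17.5 in KO. Zbtb16, a zinc finger factor, had log2 changes of -3.39 and -3.02, and Angptl4, an inhibitor of lipoprotein lipase, -2.59 and -1.47. Sult1a1, a sulfotransferase, had -1.99 and -2.57 at 0 to 12 fragments. Sgk1, a kinase, was abundant and not called, with -1.71 (SE 0.65) and -1.70 (SE 0.61). The difference between the genotypes' responses was not called for any gene of these lists.

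Markers of other cell types were given beside these values, and their part in the results was not tested. The 5 hepatocyte markers, of the tissue where most Serpina3 copies are abundant, summed to at most 0.735 CPM, with Ttr and Cyp2e1 at 0 in each library. The 8 osteoblast markers summed to 20240 to 20371 CPM in unconditioned and 13586 to 18075 in conditioned WT libraries, and to 20070 to 27025 and 9231 to 17731 in KO. The summed level of the 4 adipocyte markers, most of it from Fabp4, was also lower in conditioned medium. It was 11.5 to 14.9 and 7.17 to 9.54 CPM in WT and 10.1 to 38.6 and 2.78 to 6.75 in KO. The summed level of the 5 macrophage markers found in the table was higher in conditioned WT libraries, at 51.1 to 68.2 and 90.3 to 116 CPM. In KO the sums overlapped, at 41.8 to 63.2 and 42.4 to 104. Most of the sum was the Lyz2 entry, with means of 46.7 and 84.1 CPM in WT. Among the other means in WT, Cd68 was higher in conditioned medium, Ptprc was level, and Csf1r and Cd14 were slightly lower. In WT the summed level of the 3 endothelial markers was 3.74 to 4.62 CPM unconditioned and 6.72 to 9.61 conditioned. In KO it was 2.87 to 4.19 and 4.76 to 11.5, so the sum was higher in conditioned medium in both genotypes. Cdh5 and Kdr made up the rise. Pecam1, at 1 to 7 fragments, was not higher (means of 0.263 and 0.212 CPM in WT, 0.265 and 0.241 in KO). Kdr, a receptor of vascular growth factor, had log2 changes of 1.49 and 2.30 and was called in KO. The 5 glial markers (2.11 to 11.8 CPM) and the 4 muscle markers (2.81 to 49.3 CPM) overlapped between the media in both genotypes.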

How the data were processed

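Per the labels' protocols, RNA with an integrity number above 7.5 went into TruSeq RNA v2 libraries, which do not mark strand, and was sequenced on a HiSeq2000. The submitters' processing notes name TopHat2 2.0.9, Cufflinks and Cuffdiff 2.1.1, CASAVA 1.8.2 and the build GRCm38 (mm10). The authors' deposited tables give, per the file headers, fragments per gene or transcript and library as estimated counts, of which 94.3% were whole numbers, and FPKM. The authors' deposited test table also holds log2 fold changes and p-values with q-values. Feature lengths and positions are given per the file headers.

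The near-identical unconditioned WT libraries agreed in 91.8% of 17538 genes, with a chi-square of 759 (15474 degrees of freedom), where the next closest pair of libraries reached 94766 (15124), and they were averaged to 1. Entries without a symbol held 2.69% to 3.10% of fragments. Fragments were rounded and fitted in R 4.3.3 by edgeR 4.0.16 (robust quasi-likelihood, TMM, filterByExpr) in 1 fit of 4 groups over 15197 genes, with 7 residual degrees of freedom, a common biological coefficient of variation of 0.237 and Benjamini-Hochberg adjustment over all genes; an adjusted p under 0.05 counts as called. CPM uses TMM-scaled totals, and log2 CPM a prior count of 2. On simulated data over 15197 genes, 84.7% of genes changed by 3 on the log2 scale in the WT medium comparison were called. Counts were drawn independently for each library, without libraries that stand apart as KO libraries 0 did. The share therefore does not show how often the genotype tests would call the smaller differences fitted here. Alternatives were no filter, other size factors, DESeq2 1.42.0, limma 3.58.1 on log2 FPKM plus 1 or 0.1, 12 libraries, and leaving out each library. KO libraries with the same number deviated together over all genes (correlations of 0.349, 0.219 and 0.309). The number was therefore taken to pair them in a further fit. For Serpina3n they did not deviate together, since KO library 0 was the lowest unconditioned (279 CPM) and the highest conditioned (59.3 CPM). The further fit had fewer libraries and fewer residual degrees of freedom, so its 0 calls do not show that the media were alike. The table's numbers are not tied to the sample titles. Sequence identity and motifs were computed with Python 3.11.15 and Biopython 1.88.

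The members and gene lists were chosen with earlier results of these data known. Genes named beside the members were the 5 most correlated with Serpina3n and, per list, called genes in order of the size of the WT change and uncalled genes of high level. Some further genes were named because they went against others of their list. One further gene list and 1 listed serpin are not reported here.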

Additional observations from a re-analysis of the deposited data

How the results depend on the processing

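The medium differences of the 5 fitted entries kept their negative sign under every alternative run; Serpina3c was not fitted. The members were chosen from that contrast, so the counts of calls on it show only how calls depend on the processing and support nothing. In the fit described, 2 entries were called in WT and 5 in KO. In WT, 4 member entries were called with 12 libraries or with DESeq2, and 942 and 881 genes in all. Leaving out single libraries gave 0 to 4 entries and 0 to 887 genes in WT, and 2 to 5 entries and 343 to 6485 genes in KO. In WT 0 entries were called without either unconditioned WT library, conditioned WT library 0 or 1, unconditioned KO library 1 or 2, or conditioned KO library 1, and 4 without conditioned KO library 0. In KO 2 were called without conditioned library 1, and 3 without unconditioned library 1 or 2. With the replicate block, which uses KO libraries only, 0 of the 4 entries that passed its filter and 0 genes were called in KO, against 579 genes with KO libraries only and no block. Without both KO libraries 0, an alternative added after seeing the data, 5 entries and 1616 genes were called in WT and 7261 genes in KO. It gave 718 genes for KO minus WT in unconditioned medium, 6056 genes and 1 entry in conditioned medium, and 2705 genes and 1 entry for the interaction. Leaving out single libraries gave 0 to 1 genes in unconditioned medium, 0 to 4702 genes and 0 to 1 entries in conditioned medium, and 0 to 1429 genes for the interaction. DESeq2 called 2 genes for KO minus WT in conditioned medium. Limma on log2 FPKM plus 0.1 called 0 genes in unconditioned medium, and with plus 1 it called 1 gene for the interaction.

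Signs between genotypes were not stable for scarce copies. For Serpina3h in unconditioned medium the log2 difference was -0.042 with 12 libraries, -0.033 and -0.0031 with limma at 0.1 and 1, and -0.20 to 0.21 when single libraries were left out. In conditioned medium, leaving out single libraries gave -3.56 to 1.11 for Serpina3h, -1.08 to 1.84 for Serpina3i, -3.19 to 1.61 for Serpina3m and -1.09 to 0.16 for Serpina3n. Serpina3i there had -0.00058 with limma at 1 and -1.08 without both KO libraries 0. The interaction ranged from -3.57 to 1.10 for Serpina3h, -1.49 to 1.43 for Serpina3i and -4.22 to 0.58 for Serpina3m. The cause of these shifts was not tested. Without conditioned KO library 0 the values of Serpina3m, Serpina3i and Serpina3h rest on 0 to 2 fragments in the conditioned KO group and depend on the prior count, so they are no estimate of a fold. Depth limits Serpina3h, Serpina3i and Serpina3c, whose conditioned counts lie at or near the floor of 3 fragments.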
